A study of Mus musculus with 4 samples.

Results

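The distal end of mouse chromosome 5 carried raised coverage over a stretch that begins just before the gene Tmem130 and runs past the replication factor gene Rfc3. The members are the called regions whose midpoint lies between 144500001 and 152000000 on chromosome 5 in the mm10 build. There were 4237 of them among 1578514 regions in the whole table. The interval was chosen for its values: in each of its bins of 500 kb, the signal summed over the regions of 1 set, described next, was above 1.6 times the autosomal median. Sums, heights, widths and numbers inside it are therefore given as descriptions, with no test.

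The regions come from primary mouse neural stem cells, labelled wild type, that overexpressed FLAG-tagged Six3 and were collected 3 h after growth factor medium had been exchanged for Neurobasal with the B-27 supplement. All 4 libraries share this genotype, cell type and time: 3 were made with an antibody to FLAG and 1 with IgG, the control antibody. What the authors deposited is 1 list of called regions in which no column belongs to any library. The level of the IgG library in the interval was not analysed here, so antibody-dependent coverage, other coverage and the number of copies of this DNA in the cells cannot be told apart, and no value has a replicate error.

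CUT&RUN directs micrococcal nuclease to an antibody inside permeabilised nuclei, and the short fragments released around the bound site are sequenced. SEACR calls a region wherever a continuous run of coverage holds enough signal, so a region can grow wider, grow taller or fuse with its neighbour as coverage rises. Six3 is a homeobox factor of the developing forebrain and eye. The interval holds genes of very different roles, among them the homeobox genes Gsx1, Pdx1 and Cdx2, the receptor tyrosine kinase genes Flt1 and Flt3, the Mediator kinase gene Cdk8 and the DNA repair gene Brca2.

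The highest signal of a region, its height, was nearly always a whole multiple of 1.9 or of 0.48, and the table is described as these 2 sets. Of the members, 3731 belonged to the 1.9-step set and 505 to the 0.48-step set, and 1 region was a multiple of both steps. The rest of chromosome 5 held 88129 regions, 52831 with steps of 1.9 and 35298 with steps of 0.48. The libraries behind each set were not given in the sources used here. Signals of the sets need not be on one scale, so no height of one set is compared with a height of the other.

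The promoters below show where 1.9-step regions fell at the starts of 6 of the 7 genes listed above by their roles. Each is the RefSeq window of 300 bases on the gene's own strand, 250 before the start and 50 after it, in the GRCm38.p6 assembly, whose coordinates are those of mm10. Bases in capitals lay under a 1.9-step region and bases in lower case did not. The sequences show in letters how the cover differed from start to start: complete at Cdx2 and Flt1, partial at Gsx1, Flt3 and Cdk8, and absent at Brca2.
Cdx2, chr5:147307200-147307499, minus strand: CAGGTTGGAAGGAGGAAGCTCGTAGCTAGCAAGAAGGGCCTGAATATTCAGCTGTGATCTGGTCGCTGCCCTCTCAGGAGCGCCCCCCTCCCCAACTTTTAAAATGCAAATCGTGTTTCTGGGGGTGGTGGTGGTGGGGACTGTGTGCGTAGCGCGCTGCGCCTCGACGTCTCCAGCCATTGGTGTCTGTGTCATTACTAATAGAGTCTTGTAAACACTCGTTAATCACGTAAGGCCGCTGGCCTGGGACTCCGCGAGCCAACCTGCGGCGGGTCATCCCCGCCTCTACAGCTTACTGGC
Flt1, chr5:147725962-147726261, minus strand: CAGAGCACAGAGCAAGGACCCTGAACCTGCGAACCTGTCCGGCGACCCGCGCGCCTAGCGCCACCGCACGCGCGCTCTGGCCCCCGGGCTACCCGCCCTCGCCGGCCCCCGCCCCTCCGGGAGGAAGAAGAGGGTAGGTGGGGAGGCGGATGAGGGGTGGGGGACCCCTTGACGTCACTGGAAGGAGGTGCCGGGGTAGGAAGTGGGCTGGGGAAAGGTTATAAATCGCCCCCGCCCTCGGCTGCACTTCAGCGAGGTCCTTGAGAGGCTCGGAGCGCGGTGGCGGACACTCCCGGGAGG
Gsx1, chr5:147188446-147188745, plus strand: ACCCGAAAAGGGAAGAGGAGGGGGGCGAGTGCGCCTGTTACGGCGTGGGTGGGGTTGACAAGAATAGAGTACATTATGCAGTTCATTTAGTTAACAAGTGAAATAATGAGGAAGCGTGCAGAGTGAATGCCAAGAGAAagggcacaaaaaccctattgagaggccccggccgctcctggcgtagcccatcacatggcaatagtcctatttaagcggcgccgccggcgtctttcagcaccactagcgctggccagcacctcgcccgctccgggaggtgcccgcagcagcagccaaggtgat
Flt3, chr5:147400440-147400739, minus strand: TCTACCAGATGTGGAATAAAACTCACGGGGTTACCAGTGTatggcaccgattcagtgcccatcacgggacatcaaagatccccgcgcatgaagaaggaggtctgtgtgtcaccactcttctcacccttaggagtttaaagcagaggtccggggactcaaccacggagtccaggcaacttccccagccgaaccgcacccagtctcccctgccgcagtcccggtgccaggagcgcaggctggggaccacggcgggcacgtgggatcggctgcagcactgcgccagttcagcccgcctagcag
Cdk8, chr5:146231000-146231299, plus strand: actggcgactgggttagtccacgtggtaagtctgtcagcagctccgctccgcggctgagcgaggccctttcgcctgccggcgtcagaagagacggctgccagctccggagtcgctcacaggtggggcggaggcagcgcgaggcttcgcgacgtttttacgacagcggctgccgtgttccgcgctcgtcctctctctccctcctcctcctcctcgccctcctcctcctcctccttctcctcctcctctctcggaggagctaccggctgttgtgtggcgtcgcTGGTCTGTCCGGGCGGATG
Brca2, chr5:150522371-150522670, plus strand: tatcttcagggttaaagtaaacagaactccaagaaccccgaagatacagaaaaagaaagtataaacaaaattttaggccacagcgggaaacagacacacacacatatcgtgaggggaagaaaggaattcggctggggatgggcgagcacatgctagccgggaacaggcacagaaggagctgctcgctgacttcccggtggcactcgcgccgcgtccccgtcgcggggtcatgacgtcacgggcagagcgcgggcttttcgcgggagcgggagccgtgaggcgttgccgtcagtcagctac

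All 300 bases of the Cdx2 window lay under a region of 1604 bp with a height of 13.3, at 147306110 to 147307713. The Flt1 window was covered over 300 bases by a region of 535 bp with a height of 9.5. At Gsx1 a region of 1027 bp with a height of 7.6 ended inside the window and covered its first 138 bases. At Flt3 the covered 40 bases were the upstream end of the window, under a region of 1078 bp that reached 9.5 and lay wholly upstream of the gene. At Cdk8 the covered bases were the 19 at the downstream end, under a region of 767 bp that also reached 9.5. At Pdx1, whose window is not printed, 223 bases lay under a region with a height of 5.7. The Brca2 window was bare, and the nearest 1.9-step regions lay 115 bp past its start on one side and 3940 bp away on the other.

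A pair of letter patterns was searched on both strands of all windows and counted separately even where they overlapped: TGATAC, the core of sites known for Six-family factors, and TAATTA, the core of many homeodomain sites. Neither was in any of the 6 windows printed. TGATAC was in 5 of the 158 windows of the interval, which belong to 133 genes (3.16%), and in 5.46% of all 32851 windows of the RefSeq table. TAATTA was in 3 of the 158 (1.9%) and in 5.29% of all windows. These shares describe the letters of the windows and say nothing of where Six3 was bound.

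Signal rose within the first bin of the interval and did not return to the level of the rest of the chromosome before the last region, which ended at 151733792. All 15 bins of 500 kb exceeded 1.6 times the autosomal median, against 2.68% of 4930 autosomal bins and 2.77% of the 289 other bins of chromosome 5. This is the measure that chose the interval. The bin just outside, from 144000001, stood at 1.06 times the median, with 215 1.9-step regions and 145 0.48-step regions. The first bin inside stood at 2.41 times, with 294 and 99. The sum then rose through 3.02, 3.57, 3.64, 3.67, 4.09, 4.78 and 5.47 to a peak of 5.80 times in the bin from 148500001, which holds Ubl3 and Katnal1. After that bin it was 4.26, 4.23, 3.92, 4.64, 3.4 and, in the partly filled last bin, 2.39. The distal end of the block is thus the end of the covered chromosome, and a second edge was not seen.

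In finer bins the inner edge lay inside the interval rather than at its first base. From the interval's start, bins of 100 kb stood at 0.82, 1.51, 2.86, 2.88 and 4.04 times the autosomal median. A fit of 2 levels to bins of 10 kb placed the edge at 144680001, which is 0.18 Mb into the interval. Across the 67 bins before it the median summed signal was 6240 per bin, with quartiles of 4396 and 8603. Over the 72 bins after it the median was 18489, with quartiles of 16320 and 21751. The fit places the edge where the signal of the 2 sides differs most, so their separation cannot show how sharp the edge is. The mean number of 1.9-step regions per 10 kb bin went from 4.15 to 7.42, and that of 0.48-step regions from 2.76 to 1.74. The stretch of 0.18 Mb before the edge was at the level of the rest of the chromosome, with 366.7 regions in the 1.9-step set per Mb against 373.4 and 244.4 in the 0.48-step set against 249.5.

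Genes mark this edge closely. Baiap2l1, which encodes a protein that links the membrane to actin, is the last gene outside the interval. Nptx2, a secreted synaptic protein gene at 144545887 to 144557478, lies inside the interval but before the edge, and 17.9% of its length was covered. The predicted gene Gm52796, which lies at 144672717 to 144677468, also before the edge, held 0 1.9-step regions and 1 0.48-step regions. Tmem130, a membrane protein gene at 144735915 to 144761578, is the first gene after the edge, and 47.4% of it was covered, with 18 regions in the 1.9-step set. The last 1.9-step region before the interval, at 144496064 to 144496585, had a height of 3.8, and the first inside, at 144501031 to 144501377, had 5.7. Those 2 heights are both common in the rest of the chromosome.

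**Figure D1:**
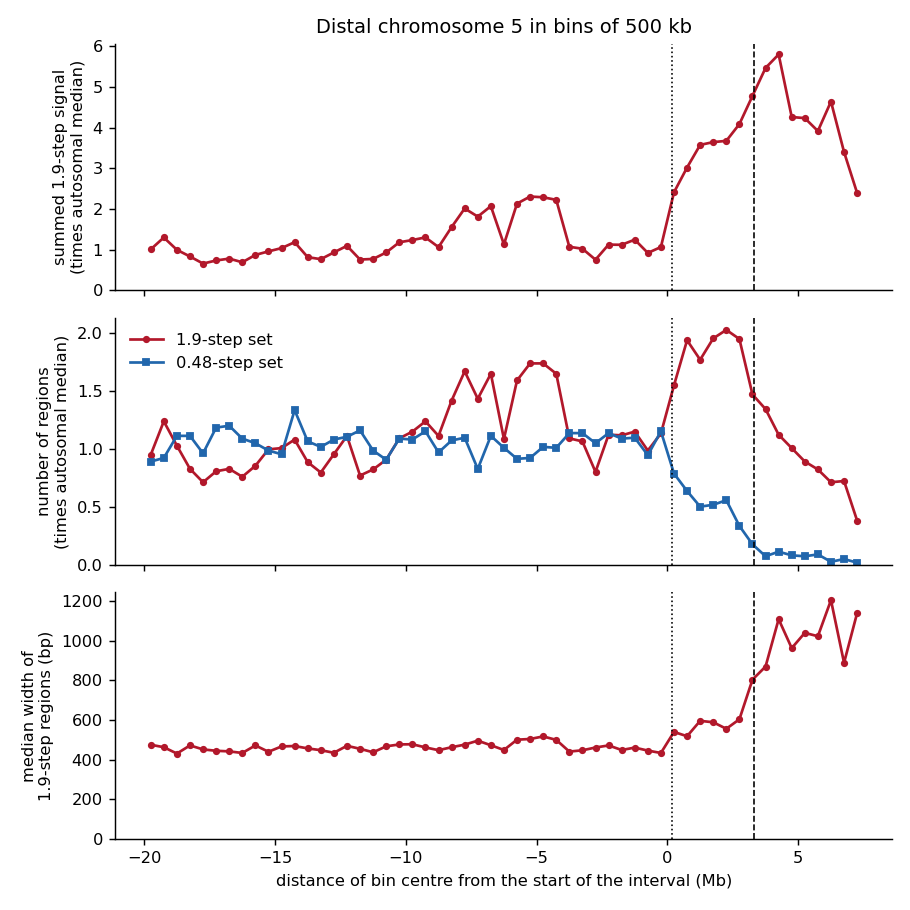
Distal chromosome 5 in bins of 500 kb, by the distance of the bin centre from the start of the interval in Mb: summed 1.9-step signal and number of regions as multiples of the autosomal median bin, and median width of 1.9-step regions in bp. The dotted line is the fitted edge at 0.18 Mb and the dashed line the split at 3.3 Mb. Signal peaks at 5.80 times the median, while the number of 1.9-step regions falls from the split on and 0.48-step regions become scarce.

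The block was not uniform, and taken over its whole length the number of its regions fell while their width rose. This opposition came from the later bins. Between the first bin and that from 147000001, the number of 1.9-step regions went from 294 to 370 and their median width from 539 to 603 bp. Over the 14 completely filled bins, Spearman's rank correlation with the distance from the interval's start was 0.938 for the mean number of steps per covered base and 0.881 for the median width. It was -0.859 for the number of 1.9-step regions, -0.928 for the number of 0.48-step regions, 0.481 for the summed signal and -0.279 for the covered share. Bins are neighbours on 1 chromosome and share their libraries, so these values are descriptions. Split into 2 levels in bins of 100 kb, the number of 1.9-step regions, the number of 0.48-step regions and the median width each changed at the same bin, 147800001. That point is 3.3 Mb into the interval and lies between Flt1, the VEGF receptor gene, and Pomp, the proteasome maturation factor gene. The stretch of 3.12 Mb from the edge to this point is called the proximal part below, and the 3.93 Mb after it the distal part. The split was found in these data and is used to describe them.

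In the proximal part 1.9-step regions were more numerous and moderately larger than elsewhere on the chromosome. There were 2261 of them, or 724.7 per Mb, against 373.4 per Mb in the rest. Their median width was 584 bp against 457 bp, and their median height 7.6 (4 steps) against 5.7 (3 steps). They covered 53.6% of the sequence against 19%, and their summed signal per Mb was 2266239 against 613353.

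In the distal part 1.9-step regions were no more numerous than in the rest of the chromosome, but far wider and taller. There were 1404, or 356.9 per Mb. Their median width was 999.5 bp and their median height 11.4 (6 steps). They covered 48.2% of the sequence, less than in the proximal part, yet their summed signal per Mb was higher at 2812484. Each covered base carried a mean of 3.07 steps in the distal part, 2.22 in the proximal part and 1.70 in the rest. The lowest summed signal of any 1.9-step region was 874 signal times bp in all 3 stretches.

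The classes of height show the same shift. Regions of 2 steps made up 36.4% of all 1.9-step regions in the rest of the chromosome, 11.0% in the proximal part and 2.07% in the distal part. Regions of 7 or more steps made up 0.416%, 7.34% and 43.4%. The 95th percentile of width was 934 bp in the rest, 1697 bp in the proximal part and 3610 bp in the distal part. The stretch at full height took up a median of 24.7% of a region's width in the rest, 13.5% in the proximal part and 5.90% in the distal part.

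Width and height were tied to each other, and among regions of exactly 3 steps little difference in width remained. Among regions of exactly 3 steps the median width was 442 bp in the rest, 454 bp in the proximal part and 417.5 bp in the distal part. Among those of exactly 5 steps it was 546 bp, 778 bp and 774.5 bp. Among regions 300 to 600 bp wide the median height was 3 steps in the rest, 3 in the proximal part and 4 in the distal part. Among regions of 600 to 1000 bp it was 3, 4 and 6 steps, the same medians as without matching. The mean number of steps per covered base still rose among regions 300 to 600 bp wide, from 1.66 to 2.06 and 2.50. A 3-step region inside the block was thus about as wide as one outside it, while a 5-step region inside was wider than a 5-step region outside.

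**Figure D2:**
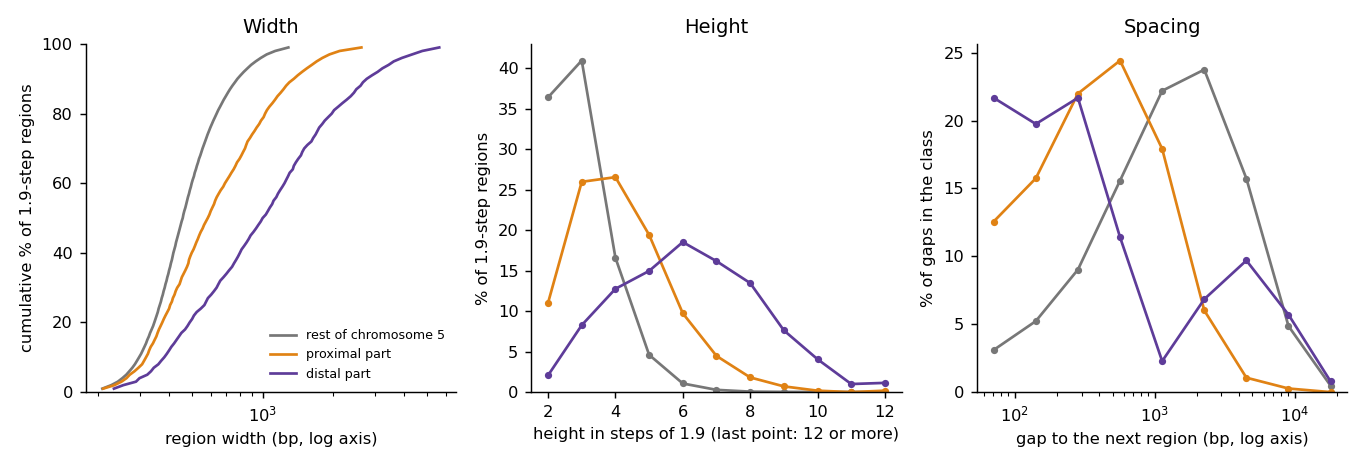
Cumulative share of 1.9-step regions by width (bp, log axis), share by height in steps of 1.9, and share of gaps between neighbouring regions by length (bp, log axis), for the rest of chromosome 5, the proximal part and the distal part. The median width goes from 457 to 584 to 999.5 bp, the most common height from 3 to 4 to 6 steps, and the gaps of the distal part fall into a short and a long group.

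The widest 1.9-step regions of the whole table were concentrated here. The interval held 18 of the 20 widest, 79 of the 100 widest and 133 of the 193 regions of at least 3 kb. Of all 1578514 regions of the table it held 4237. Width enters the summed signal that chose the interval, so these counts only describe it. The widest was 8773 bp at 151238812 to 151247584 with a height of 17.1, inside Stard13. Next came 8258 bp at 150747682 to 150755939, with a height of 19, inside the cohesin regulator gene Pds5b. A region of 7820 bp at 150942217 to 150950036 lay 2.57 kb from Kl, which encodes the FGF23 coreceptor klotho. Another of 7686 bp at 150527544 to 150535229 lay inside Brca2, and one of 7213 bp at 151559302 to 151566514 overlapped the vomeronasal receptor gene Vmn2r18. All of these lay in the distal part.

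Heights in the interval did not reach the extremes of the chromosome. The tallest 1.9-step region outside the interval on chromosome 5 had a height of 205.2, against 32.3 inside. The region of 32.3, at 147918078 to 147920579, was 2502 bp wide and lay 23.2 kb from Slc46a3, a lysosomal transporter gene. Heights of 28.5 were reached at 147010751 to 147011667, 4.99 kb from the ubiquitin ligase gene Lnx2, and at 150565456 to 150569766 inside Brca2. Heights of 26.6 were reached across the start of Uspl1, a SUMO protease gene, at 149184452 to 149186945, and 59.5 kb from Stard13 at 151487728 to 151490055. The tallest regions of the interval thus lay within the range of the chromosome.

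The tallest member belonged to neither set on its own. It spanned 564 bp at 147611201 to 147611764 inside Flt1, and its height of 45.6 equals 24 steps of 1.9 and 95 steps of 0.48. Its mean signal was 10.3 per base. The neighbours on either side, at gaps of 103 bp and 169 bp, were 1.9-step regions with heights of 9.5 and 7.6. No region of either set overlapped it. It was left out of both sets.

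Spacing changed with width. The median gap between neighbouring 1.9-step regions was 1379 bp in the rest of the chromosome, 398 bp in the proximal part and 255 bp in the distal part. Gaps under 400 bp made up 17.4%, 50.3% and 63.1%. In all 3 stretches the smallest gap was 50 bp. Measured from start to start, which takes in the width, the median spacing was 1906 bp in the rest, 1140 bp in the proximal part and 1639 bp in the distal part.

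The gaps of the distal part fell into a short and a long group, with few in between. Of its gaps, 2.28% were 800 to 1600 bp long, against 11.4% at 400 to 800 bp and 9.69% at 3200 to 6400 bp. In the rest of the chromosome the class of 800 to 1600 bp held 22.2%, and in the proximal part 17.9%. Gaps of 5 kb or more numbered 12 in the proximal part and 125 in the distal part, where they made up 3.57% and 28.4% of the sequence. In the rest they made up 29.0%. The distal part thus had runs of tall, closely set regions broken by long bare stretches.

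The long gaps of the distal part held few 0.48-step regions too. Their median length was 7508 bp and their total 1116 kb, and 83 of the 125 touched a protein-coding gene, against 2195 of 5056 in the rest of the chromosome. The share of sequence lying in genes was not measured, so these counts cannot show whether long gaps favour genes. Only 15 of the 125 long gaps held a 0.48-step region, with 16 regions in all, or 14.3 per Mb. In the rest of the chromosome 4086 of 5056 long gaps held one, at 216 per Mb. The regions flanking the distal gaps had a median of 6 steps, the same as all 1.9-step regions of the distal part, and 1067.5 bp.

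Named genes show how these gaps lie. The longest, of 27331 bp at 151155289 to 151182619, lay inside Stard13, which also held gaps of 25681 and 25522 bp. A gap of 27248 bp at 150109959 to 150137206 ran into Fry, whose product binds microtubules. One of 21879 bp lay within Kl. The longest gap of the proximal part, 32804 bp at 145480048 to 145512851, lay between Cyp3a16 and Cyp3a41b in the cytochrome P450 3A cluster. Another 2 of its 12 long gaps touched Cyp3a41b and Cyp3a41a.

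The 0.48-step set thinned out along the block, as the 1.9-step regions grew wider and taller. It numbered 396 regions in the proximal part and 65 in the distal part, or 126.9 and 16.5 per Mb, against 249.5 per Mb in the rest. Bins of 500 kb with under 0.7 times the autosomal median number of 0.48-step regions, among those with at least 50 regions in the 1.9-step set, made up 2.05% of 4777 autosomal bins and 14 of the 15 bins of the interval (93.3%). From the first bin to the last the numbers were 99, 80, 63, 65, 70, 42, 22, 9, 14, 10, 9, 11, 3, 6 and 2, against an autosomal median of 126. The number of 0.48-step regions took no part in choosing the interval, but both sets come from 1 table, and the part of the dense 1.9-step set in this thinning was not tested.

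The few 0.48-step regions of the block were slightly narrower than elsewhere, and fewer of them were of the lowest height. Their median height was 0.96 (2 steps) in all 3 stretches, but regions of 2 steps made up 75.5% in the rest, 60.6% in the proximal part and 60.0% in the distal part. Those of 4 steps made up 3.76%, 8.08% and 13.8%. Their median width was 194 bp in the rest, 176 bp in the proximal part and 142 bp in the distal part. The tallest, at 144827999 to 144828429, reached 3.36 inside Trrap, which encodes a scaffold of histone acetyltransferase complexes. The tallest of the distal part reached 2.4. The median gap between them was 2498 bp in the rest, 4924 bp in the proximal part and 35441 bp in the distal part, where the longest was 259754 bp.

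The 0.48-step set was sparse in uncovered sequence as well. Per Mb of sequence free of 1.9-step regions, those 0.48-step regions that touched none of them numbered 221 in the rest, 110 in the proximal part and 16.7 in the distal part. Overlap of the sets rose with the covered share: 28.1% of 0.48-step regions touched a 1.9-step region in the rest, 59.8% (95% Wilson interval 54.9 to 64.6) in the proximal part and 47.7% (36.0 to 59.6) in the distal part. Seen from the 1.9-step set, the overlapped share fell from 17.9% to 10.1% and 2.14%. These intervals cover counting over regions only.

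Of the 81 protein-coding genes with their midpoint in the interval, 2 lay before the edge, 53 in the proximal part and 26 in the distal part. That is 17.0 genes per Mb in the proximal part and 6.61 in the distal part, against 8.39 in the rest. The median gene was covered over 51.5% of its length in the proximal part and 45.1% in the distal part, against 20.6% in the rest. Signal per base, the summed 1.9-step signal divided by gene length and given in steps, had medians of 1.06, 1.35 and 0.35. Of the 1268 protein-coding genes of chromosome 5, 9.78% lay past the 95th percentile of the genes outside the interval, and 64 of the 81 did so inside. Since the same signal chose the interval, that count only describes it.

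**Figure D3:**
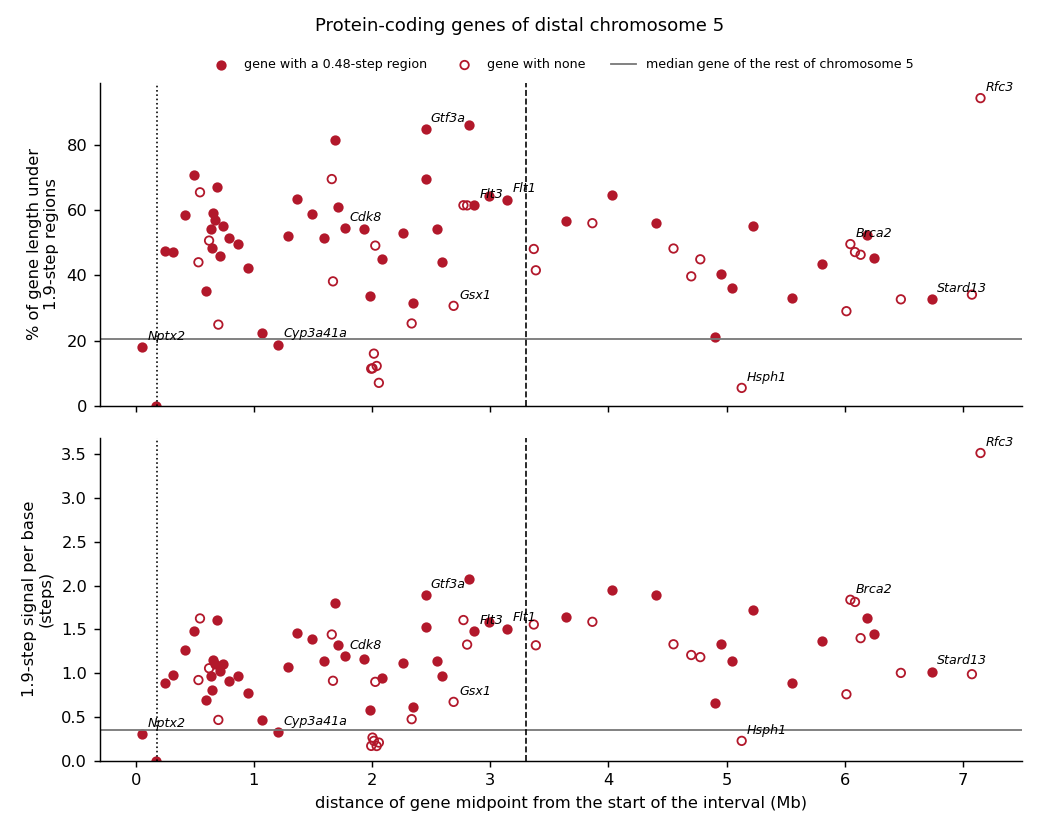
Each of the 81 protein-coding genes of the interval by the distance of its midpoint from the start of the interval (Mb): share of its length under 1.9-step regions, and 1.9-step signal per base in steps. Open circles are genes with no 0.48-step region, the grey line is the median gene of the rest of chromosome 5 (20.6% and 0.35 steps), and the dotted and dashed lines are the edge and the split. Most genes lie above the line; Rfc3 is highest and Hsph1, Cyp3a41a and several short genes near 2 Mb are among the lowest.

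The homeobox patterning genes lay as neighbours in the proximal part, and all 3 carried 1.9-step regions. Gsx1, which patterns the ventral forebrain, was covered over 30.6% of its 2.25 kb by part of 1 region, with a signal of 0.67 steps per base. Pdx1, the pancreas and duodenum factor, was covered over 61.4% of 5.75 kb, with 5 regions, a tallest of 13.3 and 1.61 steps per base. Cdx2, the intestinal and trophectoderm factor, was also covered over 61.4%, with 4 regions, the same tallest height and 1.33 steps per base. None of them held a 0.48-step region. Gsx1, the member with a forebrain role, thus had the lowest signal per base of the group.

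The receptor tyrosine kinase genes Flt3, a receptor of blood progenitors, and Flt1 were long and evenly covered. Flt3 (147330741 to 147400489) held 56 1.9-step regions and 10 0.48-step regions, was covered over 61.5% and reached 17.1. Flt1 (147561604 to 147726438) held 113 and 13, was covered over 63.2% and reached 19 outside the unassigned region. Their signals per base, 1.48 and 1.51 steps, differed little. Flt1 is the last gene before the split.

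Of the 4 listed genes of DNA repair, replication and cohesion, 3 lay in the interval, all in the distal part. The mismatch repair gene Pms2 lay outside. Brca2 (150522297 to 150570147), the homologous recombination mediator, held 11 1.9-step regions and 0 0.48-step regions. They covered 49.5% of it, with a widest of 7686 bp, a tallest of 28.5 and 1.84 steps per base. Rfc3 (151642817 to 151651208), a subunit of the clamp loader, was covered over 94.2% of its 8.39 kb by 6 regions, with 3.52 steps per base. Both values were the highest of all genes of the interval. Pds5b held 46 and 2 regions, was covered over 45.3% and carried 1.45 steps per base.

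Of the 6 listed genes of the transcription machinery and chromatin, 5 lay inside and the forkhead gene Foxk1 lay outside. Cdk8 (146230795 to 146302874) held 57 1.9-step regions and 12 0.48-step regions and was covered over 54.4%, with a tallest of 11.4 and 1.20 steps per base. Trrap held 63 and 18, the most 0.48-step regions of any gene of the interval, and was covered over 47.0%. Gtf3a, the 5S rRNA gene factor TFIIIA, was covered over 84.8% of 6.96 kb with 1.9 steps per base. Polr1d, a subunit of RNA polymerases I and III, was covered over 44.0%, and Hmgb1, a chromatin architectural protein gene in the distal part, over 48.2%. All 5 lay past the 95th percentile named above, as did 64 of all 81 genes of the interval, so the count is no separate result about these 5.

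The cytochrome P450 3A genes, which encode liver enzymes of drug and steroid metabolism, were unevenly covered. Of the 9 listed, 8 lay inside, all in the proximal part, and Cyp3a13 lay outside. Their covered share ran from 18.8% at Cyp3a41a and 22.3% at Cyp3a41b through 42.2% at Cyp3a16, 49.5% at Cyp3a57, 51.3% at Cyp3a59, 51.9% at Cyp3a44 and 58.8% at Cyp3a25 to 63.2% at Cyp3a11, which also held the tallest region of the group at 22.8. Cyp3a41a and Cyp3a41b are near-identical copies, and the placing of reads that match both was not given in the sources used here. Their low values are therefore uncertain. Cyp3a41a had 0.33 steps per base, at percentile 43.6 of the genes outside the interval.

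The cytoskeletal genes included the longest of the interval. Of 9 listed, 7 lay inside, 3 in the proximal part and 4 in the distal part, and Baiap2l1 and the beta-actin gene Actb lay outside. Mtus2, which encodes a microtubule-associated protein, held 183 1.9-step regions and 8 0.48-step regions over 358.8 kb and was covered over 56.7%. Fry held 121 and 10 and was covered over 43.4%. Stard13 held 101 and 2 over 390.7 kb and was covered over only 32.6%, since its long gaps took up much of it. Katnal1, a microtubule-severing enzyme gene, had 56.1% and 1.9 steps per base. In the proximal part Wasf3, an activator of actin branching, had 54.1%, and the Arp2/3 subunit genes Arpc1a and Arpc1b had 35.2% and 50.6%.

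Ubiquitin and proteasome genes were covered at similar levels in both parts. The deubiquitinase gene Usp42 lay outside, and the other 7 of 8 lay inside. Covered shares were 58.4% at the ligase gene Smurf1, 61.0% at the ligase gene Rnf6, 52.9% at the deubiquitinase gene Usp12 and 54.2% at Lnx2 in the proximal part. In the distal part they were 48% at Pomp, 64.7% at the ubiquitin-like gene Ubl3 and 39.7% at Uspl1. Of these, Ubl3 had the highest signal per base, 1.95 steps, and Usp12 and Lnx2 the lowest, 1.11 and 1.14.

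Of the 6 listed receptor and transporter genes 5 lay inside, and the kinase gene Lmtk2 lay outside. Gpr12, an orphan receptor gene expressed in brain, was covered over 45.1% in the proximal part. In the distal part the cationic amino acid transporter gene Slc7a1 was covered over 56.0%, Slc46a3 over 41.5%, the relaxin family receptor gene Rxfp2 over 33.1% and Kl over 32.6%. The zinc finger genes lay near the inner edge, with 4 of 5 inside and Zfp958 outside. Zfp655 was covered over 55.2%, Zscan25 over 51.5%, Zkscan5 over 46.0% and Zkscan14 over 24.9%.

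Some genes of the interval were covered no more than the rest of the chromosome. Hsph1, a heat shock chaperone gene in the distal part, held 3 regions and was covered over 5.51% of 19.7 kb, with 0.23 steps per base. That was percentile 17.9 of the genes outside the interval. In a row of near-identical short genes in the proximal part, covered shares were 7.06% at Gm3415, 11.4% at Gm6370 and 11.5% at 4930449I24Rik. The row was not low throughout: Gm6408 and Gm3404, chosen after their values were seen, were covered over 33.8% and 49.1%. As copies of one another these genes carry the same doubt about read placement. At the other end, the urate pathway gene Urad was covered over 85.9%, 1700001J03Rik over 81.5% and the importin gene Kpna7 over 70.7%.

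Long genes without any 0.48-step region were frequent in the distal part. Outside the interval, 3.21% of 871 genes of at least 10 kb on chromosome 5 held none. In the proximal part it was 1 of 30 (3.33%), a share near that background, and in the distal part 12 of 24 (50%). Slc7a1 (72.5 kb) and Brca2 (47.9 kb) were among the 12. The 0.48-step set numbered 16.5 regions per Mb in the distal part against 249.5 in the rest. The share of 50% was not separated from that low density, so it is no separate result about these genes. The 5 genes with most 0.48-step regions, Trrap, Flt1, Smurf1, Cdk8 and Wasf3, with 18, 13, 13, 12 and 11, all lay in the proximal part.

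Gene starts rich in CpG, a feature of many widely expressed genes, were covered less often than CpG-poor starts in the distal part. A start was called CpG-rich when its window of 300 bases held at least 10 CpG. Of 26 such starts at least 1 kb apart, 7 had a 1.9-step region in their window, or 26.9% (95% Wilson interval 13.7 to 46.1). Of the 44 CpG-poor starts of the distal part 30 had one, or 68.2% (53.4 to 80.0). In the proximal part the shares were 19 of 25, or 76.0% (56.6 to 88.5), and 28 of 37, or 75.7%. In the rest of the chromosome they were 266 of 716, or 37.2%, and 273 of 869, or 31.4%. The interval for CpG-rich starts of the distal part takes in that 37.2%, so most such starts were bare in both stretches. With a limit of 5 CpG the share for CpG-rich starts of the distal part was 49.0% (35.6 to 62.5). That for CpG-poor starts was then 61.9% (40.9 to 79.2). These intervals overlap widely, so the contrast depended on the limit. With a limit of 15 CpG the shares were 30.0% and 62.0%. CpG content took no part in choosing the interval, but the class and the split were set after seeing the data, so no test is given.

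The bare stretch around CpG-rich starts of the distal part spanned a few kb. Within 1 kb of these starts 28.9% of bases lay under 1.9-step regions, against 52.8% at 5 to 10 kb, a ratio of 0.549. The same ratio was 1.03 in the proximal part and 1.06 in the rest of the chromosome, and 1.16 at CpG-poor starts of the distal part. Of the 26 starts, 13 lay in a span of 5 kb or more with no 1.9-step region. Gaps of that length made up 28.4% of the sequence of the distal part, and CpG-poor starts were not counted in this way. The span was 15180 bp at Slc46a3, 11544 bp at a start of Mtus2 and 10997 bp at a start of Stard13. It was 10736 bp at N4bp2l2, a neighbour of Brca2 chosen after its values were seen. Starts of Slc7a1, Pds5b, Kl, Rfc3 and B3glct, a glycosyltransferase gene, and one start of Hmgb1 were covered. Hsph1, whose body was nearly bare, also had an uncovered CpG-rich start in a span of 5887 bp.

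**Figure D4:**
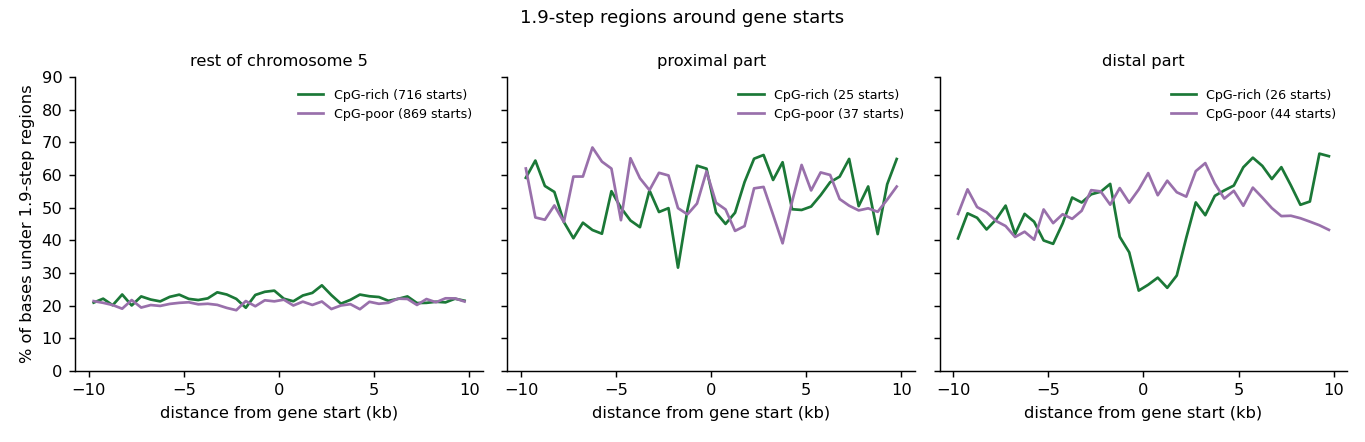
Share of bases under 1.9-step regions in steps of 500 bp from 10 kb before to 10 kb after gene starts, for CpG-rich and CpG-poor starts of the rest of chromosome 5, the proximal part and the distal part. Only the CpG-rich line of the distal part (26 starts) dips at the start, to 28.9% within 1 kb against 52.8% at 5 to 10 kb. The lines of the interval rest on 25 to 44 starts and are uneven.

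Regions were also counted at gene ends. In the proximal part 7.70% of 1.9-step regions (95% Wilson interval 6.67 to 8.87) came within 1 kb of an end of a protein-coding gene. In the rest it was 4.25%, and in the distal part 4.13% (3.21 to 5.30). Gene density and region width differ between these stretches, and their part in the shares was not tested. With windows of 5 kb the shares of the 1.9-step set were 26.6%, 15% and 11.5% for the proximal part, the rest and the distal part. Of the 0.48-step regions, 6.06% came within 1 kb of a gene end in the proximal part, against 3.23% in the rest. In the distal part 0 of 65 did so, which allows a share of up to 5.58% by the same interval. That takes in the 3.23% of the rest, so the 0 is no separate result. With windows of 5 kb the shares of the 0.48-step set were 27.0% in the proximal part, 13.2% in the rest and 3.08% in the distal part.

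The other raised segments that were measured carried less signal per Mb than either part of the interval, with narrower 1.9-step regions and more 0.48-step regions. Runs of at least 3 bins over 1.6 times the autosomal median formed 12 segments, on chromosomes 5, 10 and 15. Those of chromosome 5 and those of at least 3 Mb elsewhere were measured. On chromosome 5 itself the segments from 136500001 and from 138500001 had 601 and 637.5 regions in the 1.9-step set per Mb, median widths of 479.5 and 506 bp, and 254.7 and 243.0 regions in the 0.48-step set per Mb. The segments of chromosome 10 had median widths of 480 and 478 bp and 238 and 236 regions in the 0.48-step set per Mb. The segment of chromosome 15 from 54500001 had 644 regions in the 1.9-step set per Mb, a median width of 532 bp and 186.9 regions in the 0.48-step set per Mb. There 4.32% of the sequence lay in gaps of 5 kb or more. No test sets these segments against the interval, since each was chosen by its signal.

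Among the stretches of highest signal, the interval can be set beside chromosome 15. Runs of bins over 3.5 times the autosomal median covered 5.5 Mb on chromosome 5, all within the interval, and 3.0 Mb on chromosome 15. The signal of these bins was not equal, at 2688761 per Mb on chromosome 5 and 2973173 per Mb on chromosome 15, and 1.9-step regions covered 52.3% and 63.5% of them. Their median widths were 728 and 687 bp, with 57.8 and 79.3 regions in the 0.48-step set per Mb. Gaps of 5 kb or more numbered 104 over the 5.5 Mb of chromosome 5 and 9 over the 3.0 Mb of chromosome 15. They made up 15.8% and 2.03% of the sequence. Regions in the 1.9-step set numbered 520.0 and 705.7 per Mb. At CpG-rich starts, 100 of 202 windows in the chromosome 15 segments of at least 3 Mb held a 1.9-step region (49.5%), against 118 of 234 CpG-poor ones (50.4%). On chromosome 10 it was 32 of 57 (56.1%) against 53.3%. The high bins of chromosome 15 held only 1 CpG-rich start, so the dip at such starts could not be compared there.

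**Figure D5:**
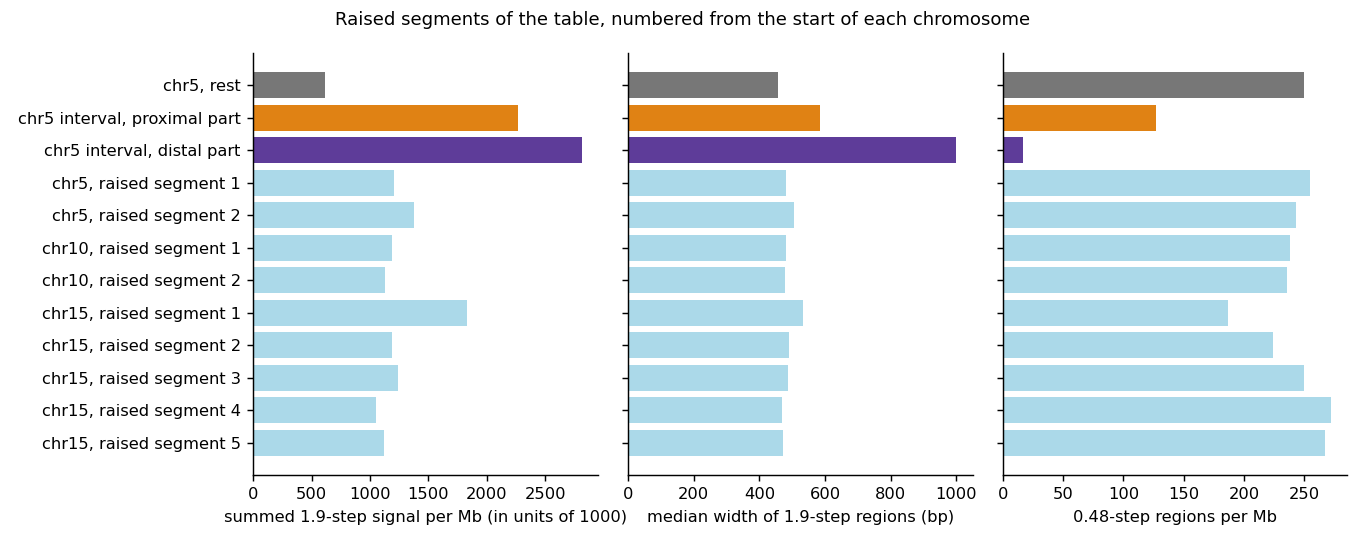
Summed 1.9-step signal per Mb (in units of 1000), median width of 1.9-step regions (bp) and number of 0.48-step regions per Mb in the rest of chromosome 5, the proximal and distal parts of the interval, the other raised segments of chromosome 5, and the raised segments of at least 3 Mb on chromosomes 10 and 15. The distal part has the widest regions (999.5 bp) and the fewest 0.48-step regions (16.5 per Mb) of the stretches drawn.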

How the data were processed

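CUT&RUN libraries of 4 samples, 3 with FLAG and 1 with IgG, were processed by the authors with Bowtie2, deepTools and SEACR on the mm10 build, per the submitters' processing notes. The deposited table's name also points to spike-in scaling and BEDOPS. Versions, parameters, filters and the rule for combining libraries were not given in the sources used here. For each region the authors deposited its highest coverage signal and the signal summed over its bases, both their own scores. These were used to describe and rank regions within the table.

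Regions were put in a step set when height over 1.9 or 0.48 was within 0.001 of a whole number. Sums, numbers and covered bases were taken in bins of 500 kb, and a least-squares fit of 2 levels to bins of 100 kb or 10 kb gave the split and the edge (for signal, log2 with 1000 added). Genes and promoter windows came from RefSeq tables of GRCm38.p6, which have no exons. No genome was used, so sequences of regions are not shown. Python 3.11.15, numpy 2.4.6 and pandas 2.3.3 were used, and the scripts were tested on simulated data. The planned limma comparison of FLAG with IgG was not run, since 0 columns belong to a single library. For the same reason the depth per library is unknown, and Wilson intervals cover counting over regions or windows only. Region size, bin size, height and overlap thresholds were varied.

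Genes named are those given with the interval, the genes of 9 lists inside it, the 5 with the highest and the 5 with the lowest covered share, the 5 with the tallest region, the 5 with most 0.48-step regions, the genes at each edge, and those nearest the 5 tallest and 5 widest regions. The interval, lists, split and CpG classes were chosen with earlier results of these data known.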

Additional observations from a re-analysis of the deposited data

How the results depend on the processing

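The summed 1.9-step signal of the median bin, 4.05 times that of the rest of chromosome 5, lay between 3.92 and 5.59 under all 5 alternatives tried. The number of 1.9-step regions per Mb, 1.38 times the rest, was 1.2 times with regions under 100 bp apart merged and 1.995 times for regions of 3 steps or more. The number of 0.48-step regions per Mb, 0.280 times the rest, became 0.430 when regions of 3 steps or more alone were counted. All 0.48-step regions, taken per Mb not covered by 1.9-step regions, gave 0.452, although 284 of the 505 touched a 1.9-step region. Those that touched none numbered 60.8 per uncovered Mb in the interval, against 221 in the rest. The median height, 1.67 times the rest, became 1.0 among regions 300 to 600 bp wide. In that class the mean number of steps per covered base was still 2.06 and 2.50 in the proximal and distal parts, against 1.66. The median width, 1.49 times the rest, was 1.0 among regions of exactly 3 steps. The covered share of 49.8% became 47.9% for regions of 3 steps or more. The median gap, 0.250 times the rest, became 0.674 when measured from start to start. The share of 0.48-step regions overlapping a 1.9-step region went from 56.2% to 46.3% when at least 50% of the region had to overlap. The share of 1.9-step regions at gene ends, 6.27%, became 20.7% with windows of 5 kb, against 15% in the rest of the chromosome. The share of CpG-rich starts of the distal part with a 1.9-step region went from 26.9% to 49.0% when 5 CpG sufficed, and was 30.0% at 15 CpG. At CpG-poor starts the share went from 68.2% to 61.9%, and was 62.0% at 15 CpG. The contrast of the 2 classes was thus much smaller at 5 CpG. The CpG alternatives, the comparison without the other raised segments of chromosome 5 and that after the fitted edge were chosen after seeing the data. The start of the block was 144.5, 144.65 or 144.7 Mb in bins of 500, 50 and 100 kb.

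No paired analysis was possible because the table has no column for a single library, so no library was left out in turn and the depth behind a value is unknown. The placing of reads in repeats and near-identical genes, and the level of the IgG library in the interval, were not analysed here.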
